A study of Homo sapiens with 3 samples.

Results

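The genes described here are 42 members of the ATP-binding cassette (ABC) family, chosen by symbol from the 46427 genes of the deposited table. ABCB1, its neighbor ABCB4 and the peptide transporters TAP1 and TAP2 were left out of the list. MM468 is the MDA-MB-468 line, an established cell line of triple-negative breast cancer (TNBC). Total RNA of 3 lines was sequenced with 1 library per line. These were parental MM468 cells, adriamycin-resistant MM468 cells raised under adriamycin at 10 to 140 nmol/L, and paclitaxel-resistant MM468 cells raised under paclitaxel at 2 to 320 nmol/L. Both resistant lines are the cells that survived exposure of the parental line. The sources used here do not give whether a line is a clone or whether drug was present at harvest. With 1 library per line, no difference could be tested and no SD exists. Where both libraries had counts, each ratio is therefore printed with an exact binomial (Clopper-Pearson) 95% interval, which covers counting error only.

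ABC proteins bind ATP on paired cytoplasmic domains and use its hydrolysis to move a substrate across a membrane. Several members, among them ABCG2 and the ABCC proteins of the multidrug resistance-associated group, export drugs or their glutathione, glucuronide and sulfate conjugates. The ABCA proteins and part of the ABCG group mostly move sterols and phospholipids, and further members serve mitochondria, lysosomes and peroxisomes. The ABCE and ABCF proteins have no membrane-spanning part and act on ribosomes and translation.

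The libraries held 32704885 counts in parental cells, 47567927 in adriamycin-resistant cells and 43242628 in paclitaxel-resistant cells. A count of 3, taken as the floor in each library, equalled a CPM of 0.0967, 0.0661 and 0.0627 in the same order. Ratios were taken after TMM scaling of library sizes, and a gene was compared when 1 of the 2 libraries had 10 or more counts. A member is called higher or lower when its ratio was 2-fold or more. All 6 epithelial markers (EPCAM, CDH1, KRT8, KRT18, KRT19 and EGFR) were abundant, with a summed TPM of 7417 in parental, 8306 in adriamycin-resistant and 7705 in paclitaxel-resistant cells. The hormone receptor genes ESR1 and PGR summed to a TPM of 1.69, 2.55 and 1.48. The 8 markers of leukocytes, endothelium and fibroblasts summed to a TPM of 16.5, 27.4 and 10.2, mostly from CD68 and COL1A1. Of these 8 markers, 3 were at 0 in parental, 2 in adriamycin-resistant and 3 in paclitaxel-resistant cells, with COL1A2 at 0 in every library. Their part in the results was not tested. In RNA from whole cultures, fewer cells of a kind and less RNA per cell cannot be told apart.

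Of the 42 members, 5 had no count in any library (ABCA8, ABCC8, ABCC9, ABCC12 and ABCG5). In each library, 0 counts allow a level of up to the 3-count floor. A further 4 stayed between 1 and 9 counts at most, namely ABCA6 with 3, 7 and 9 counts in parental, adriamycin-resistant and paclitaxel-resistant cells, and ABCB5, ABCD2 and ABCG8 with 2, 7 and 3 counts in paclitaxel-resistant cells alone. The other 33 reached 10 counts, 25 of them reached 100 and 19 reached 1000. Members with a count numbered 30 in parental, 32 in adriamycin-resistant and 37 in paclitaxel-resistant cells. Genes with a count in the whole table rose in the same order, at 21146, 22202 and 23859, and the parental library was the smallest.

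The summed TPM of the members was 647.5 in parental, 696 in adriamycin-resistant and 756.4 in paclitaxel-resistant cells. As TMM-scaled CPM, the sums were 1309, 1562 and 1305, so the order of the libraries depended on the scale. TPM is corrected for gene length, so it also allows levels of different genes to be set side by side. The genes of the soluble ABCF proteins held the largest share of the family RNA in each library, with a summed TPM of 251.9, 236.4 and 204.9 for 3 genes. The 12 genes of subfamily C, counting CFTR, summed to 103.5 in parental, 161.7 in adriamycin-resistant and 164 in paclitaxel-resistant cells, from 16% to 23.2% and 21.7% of the family, and to a TMM-scaled CPM of 269, 442.4 and 364.2. Subfamily D stood at 112.2, 72.9 and 145.7, most of it ABCD3, and at 193.1, 121.6 and 188.4 as TMM-scaled CPM, where paclitaxel-resistant cells were just below parental cells. By TPM, subfamily A was at 54.3, 73.3 and 86.2 and subfamily B at 65.6, 63.8 and 51.3. ABCE1, which is subfamily E, was at 58.2, 83.1 and 102. Subfamily G was the scarcest, at 1.71, 4.79 and 2.68. As TMM-scaled CPM, subfamily A was at 189.6, 279.7 and 249.2, subfamily B at 116, 121.9 and 74, and ABCE1 at 107.9, 160.3 and 150.6. On this scale adriamycin-resistant rather than paclitaxel-resistant cells were highest for subfamily A and ABCE1.

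**Figure D1:**
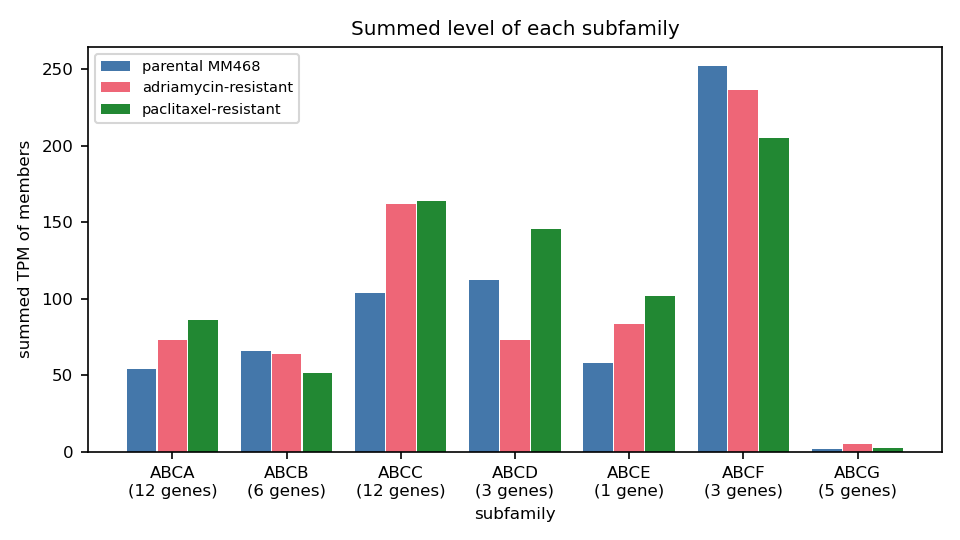
Summed TPM (vertical axis) of the members of each ABC subfamily (horizontal axis, with the number of genes) in the 3 libraries, 1 library per line and so without error bars. Subfamily C stood at 103.5 in parental cells and at 161.7 and 164 in the resistant lines, while subfamily D was lowest in adriamycin-resistant cells.

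Between adriamycin-resistant and parental cells, 30 members could be compared. Of these, 8 were at least 2-fold higher, where 11.1% of 17950 genes were, and 1 was at least 2-fold lower, where 11.3% were. The 8 make 26.7% of the 30, and the median log2 fold change of the members was 0.57, beside 0.03 over all genes compared. ABCG2, ABCB11, ABCA10 and ABCC11, among the 8, had under 10 parental counts and reached the minimum through the adriamycin-resistant library alone. Their calls follow in part from the minimum, and the intervals of ABCB11 and ABCC11 included no change. Among the 25 members with 100 or more counts, 5 were higher and 1 lower, where 6.28% and 7.85% of 13127 genes were.

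Between paclitaxel-resistant and parental cells, 33 members could be compared. Here 9 were higher, 27.3% of the 33, where 20.6% of 19099 genes were higher. All of these but ABCA5 and ABCC1 had under 10 parental counts and reached the minimum through the paclitaxel-resistant library alone. One member, ABCC6, was lower, where 13.5% of genes were. The median of the members was 0.36, beside 0.08 over all genes. With 100 or more counts, 2 of 22 members were higher and 0 lower, where 11.7% and 12.7% of 13603 genes were. Under the 2-fold rule, the share of higher members was thus near the background of this comparison, and below it among well-counted genes. Stricter rules differed, with 9 higher by the whole interval past 2-fold and 6 at 4-fold, where 11% and 7.38% of genes were. The 6, and all of the 9 but ABCA5 and ABCC1, had under 10 parental counts, so these counts follow in part from the minimum. Both comparisons share the parental library and are not independent of each other. Library size alone, in place of TMM, shifts every log2 fold change of paclitaxel-resistant against parental cells by 0.22, which gave 10 members higher and 0 lower, where 24.9% and 10.1% of genes were.

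**Figure D2:**
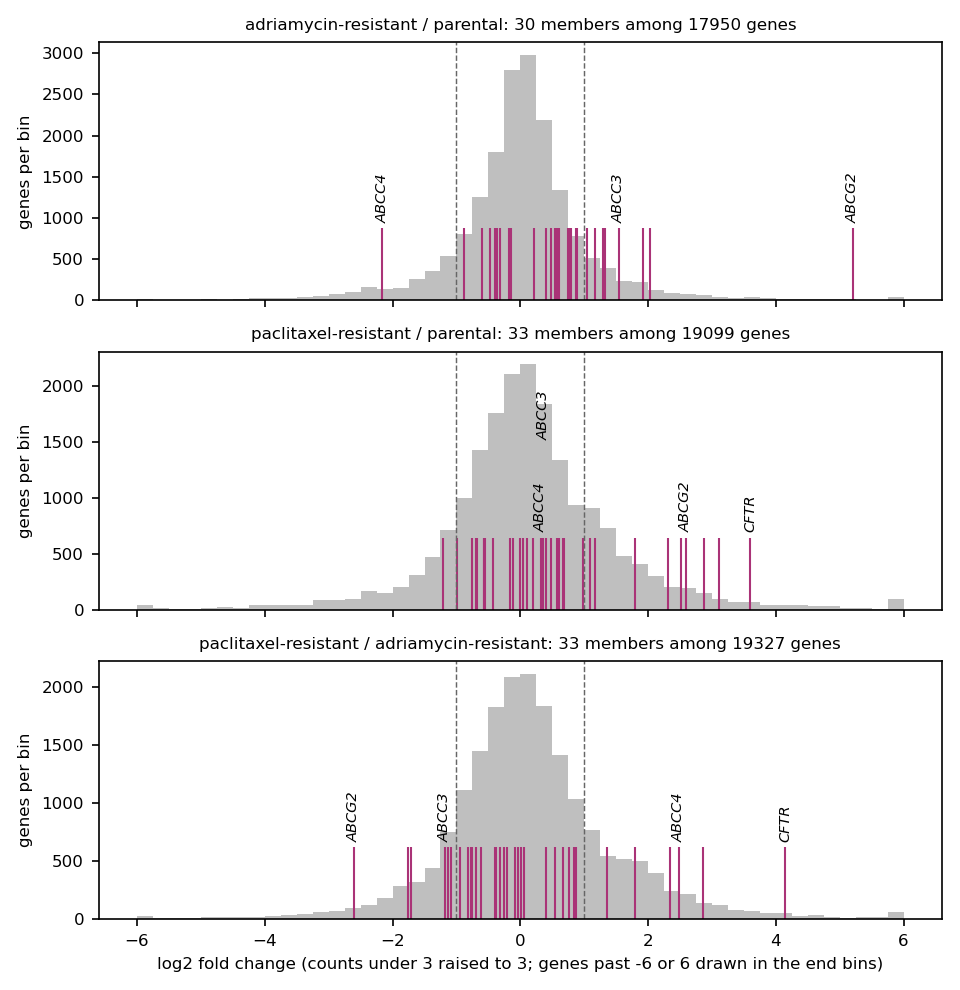
Number of genes per bin (vertical axis) by log2 fold change (horizontal axis) in each of the 3 comparisons, with all genes compared in gray and the members as purple lines, counts under 3 raised to 3, dashed lines at 2-fold. ABCG2 lies far to the right of the adriamycin-resistant against parental distribution, ABCC4 to its left, and CFTR to the right in both panels of paclitaxel-resistant cells.

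The drug and conjugate exporters comprised 12 genes, of which 10 could be compared. In each resistant line 4 of the 10 were called higher than in parental cells and 1 lower, beside 11.1% higher and 11.3% lower over all genes in adriamycin-resistant and 20.6% and 13.5% in paclitaxel-resistant cells. ABCG2, ABCB11 and ABCC11 were among the 4 in each line, and ABCC3 in adriamycin-resistant and ABCC1 in paclitaxel-resistant cells completed them. ABCG2, ABCB11 and ABCC11 had under 10 parental counts and reached the minimum through the resistant libraries alone, where they were high, so their calls follow in part from the minimum and the counts of 4 are no evidence about the group. With 100 or more counts, 2 of 7 exporters were higher and 1 lower in adriamycin-resistant cells (6.28% and 7.85% of all genes), and 1 of 5 was higher in paclitaxel-resistant cells (11.7%).

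ABCG2 encodes the breast cancer resistance protein, an efflux pump for anthracyclines, camptothecins and conjugates. The gene lies on the minus strand at chr4:88090264-88231626 (GRCh38.p14, RefSeq). It had 0 counts in parental, 162 in adriamycin-resistant and 28 in paclitaxel-resistant cells. Parental cells were thus at or under the floor, while both resistant lines were above it. With parental cells at the floor of 3 counts, ABCG2 was 36.9-fold higher in adriamycin-resistant and 6.05-fold higher in paclitaxel-resistant cells. These values carry no interval and leave out counting error in the resistant libraries. In the first of these comparisons, 0.345% of genes reached such a value. Paclitaxel-resistant cells had 0.164 times the ABCG2 level of adriamycin-resistant cells (95% interval 0.106 to 0.246). At a TPM of 1.77, the adriamycin-resistant level was still below that of the 5 most abundant ABCC exporters in the same library.

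ABCC3, a pump for bile salts, glucuronides and other organic anions, lies at chr17:50634881-50692253 on the plus strand. It gave 2646, 11255 and 5241 counts in parental, adriamycin-resistant and paclitaxel-resistant cells. Of the exporters listed, it was the most abundant in all 3 libraries. Its level in adriamycin-resistant cells was 2.91-fold that of parental cells (95% interval 2.79 to 3.03), and in paclitaxel-resistant cells 1.28-fold (1.23 to 1.35). Its TPM was 31.8, 88.4 and 51, from 30.7% to 54.1% and 31.1% of the exporter sum.

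ABCC1, known as MRP1, carries glutathione conjugates and anthracyclines out of the cell and lies at chr16:15949143-16143053 on the plus strand. Counts were 1406 in parental, 2399 in adriamycin-resistant and 4620 in paclitaxel-resistant cells. After scaling, the paclitaxel-resistant line was 2.13-fold higher than parental cells (95% interval 2.01 to 2.26) and the adriamycin-resistant line 1.17-fold (1.09 to 1.25). The paclitaxel-resistant value stood just past the 2-fold threshold, and 19.1% of genes compared reached it.

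ABCC4, which exports cyclic nucleotides, prostaglandins and nucleoside analogs, was the only member lower in adriamycin-resistant cells by 2-fold or more. The gene spans chr13:95019835-95301451 on the minus strand. It had 811, 266 and 1562 counts in parental, adriamycin-resistant and paclitaxel-resistant cells. The adriamycin-resistant level was 0.224 times the parental level (95% interval 0.194 to 0.258), and the paclitaxel-resistant level 1.25 times (1.15 to 1.36). ABCC4 thus lay on opposite sides of the parental level in the resistant lines, which differed from each other by 5.57-fold (4.89 to 6.37).

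ABCC5 and ABCC10, pumps for nucleotide analogs and for taxanes respectively, differed from parental cells by less than 2-fold. ABCC5 had 1587, 4231 and 3878 counts, with ratios to parental of 1.82 (95% interval 1.72 to 1.93) in adriamycin-resistant and 1.58 (1.49 to 1.68) in paclitaxel-resistant cells. ABCC10 had 1825, 1757 and 1917 counts, with ratios of 0.658 (0.616 to 0.703) and 0.681 (0.638 to 0.727). The former was above and the latter below the parental level in both lines. ABCC10 was the second exporter by TPM in parental cells, and the fourth in both resistant lines.

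The remaining exporters rested on few counts. ABCC11, a pump for cyclic nucleotides and lipophilic anions, had 7, 23 and 62 counts, and its ratio to parental was 2.24 (95% interval 0.933 to 6.2) in adriamycin-resistant and 5.74 (2.63 to 14.9) in paclitaxel-resistant cells. It overlaps LONP2 on the opposite strand, and whether the counting used strand is not stated, so its counts are uncertain. ABCB11, the bile salt export pump, had 3, 11 and 40 counts, with ratios of 2.51 (0.662 to 14) and 8.65 (2.75 to 43.7). For both genes the interval in adriamycin-resistant cells included no change. ABCC2, a conjugate pump, had 44, 108 and 70 counts, with ratios of 1.68 (1.17 to 2.44) in adriamycin-resistant and 1.03 (0.698 to 1.54) in paclitaxel-resistant cells. ABCC6 had 15, 32 and 10 counts, and its 0.432-fold ratio in paclitaxel-resistant cells had an interval from 0.174 to 1.03. Reads of ABCC6 are also shared with near-identical copies, of which ABCC6P1 had 26, 22 and 14 counts, so its values are uncertain. ABCC2, ABCC6, ABCC11 and ABCB11 all stayed under a TPM of 1 in every library. ABCB5 and ABCC12 did not reach the minimum.

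Set by TPM, the exporters of parental cells ran ABCC3 (31.8), ABCC10 (26.4), ABCC5 (19.8), ABCC1 (14.9) and ABCC4 (9.44), with no other above 1. In adriamycin-resistant cells the order was ABCC3 (88.4), ABCC5 (36.6), ABCC1 (16.7), ABCC10 (16.2), ABCC4 (2.06) and ABCG2 (1.77). Paclitaxel-resistant cells had ABCC3 (51), ABCC1 (40.3), ABCC5 (34.7), ABCC10 (21.2) and ABCC4 (14.8). Neighbors in these orders have no spread between replicates to be judged by, and ABCC1 and ABCC10 in adriamycin-resistant cells were close. The exporters summed to a TPM of 104 in parental, 163.5 in adriamycin-resistant and 164.1 in paclitaxel-resistant cells. As TMM-scaled CPM, the sums were 269.1, 446.1 and 364.5, with adriamycin-resistant cells highest.

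**Figure D3:**
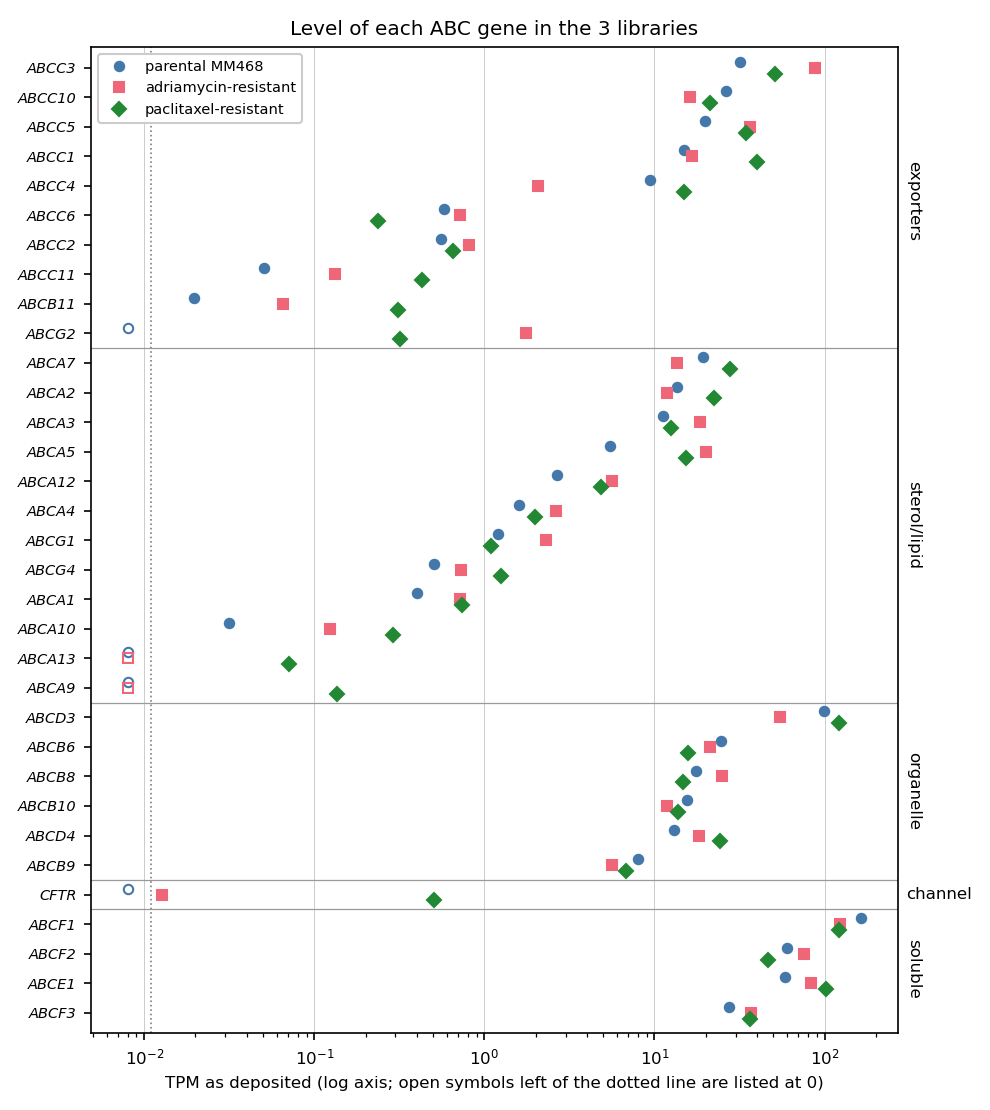
TPM as deposited (horizontal axis, log scale) of the 33 members that reached 10 counts in a library (vertical axis, grouped by role), with 1 symbol per library and open symbols for genes listed at 0. The ABCC exporters and the soluble ATPases sit above a TPM of 1 in every library, ABCC2, ABCC6 and ABCC11 excepted, and ABCG2, ABCA9, ABCA13 and CFTR are at 0 in parental cells.

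For ABCG2 (at most 162 counts in a library), ABCA5 and ABCC4, the sequences before the start of transcription are shown. They are the 250 bases upstream of a start listed by RefSeq in GRCh38.p14, printed 5′ to 3′ on the strand of the gene. Capitals mark GCGTG or its reverse complement CACGC, the core letters bound by the aryl hydrocarbon receptor (AhR), a known regulator of ABCG2. RefSeq lists 5 starts for ABCG2, of which the most downstream and the most upstream are given.
ABCG2 downstream start, chr4:88158640-88158889, minus strand: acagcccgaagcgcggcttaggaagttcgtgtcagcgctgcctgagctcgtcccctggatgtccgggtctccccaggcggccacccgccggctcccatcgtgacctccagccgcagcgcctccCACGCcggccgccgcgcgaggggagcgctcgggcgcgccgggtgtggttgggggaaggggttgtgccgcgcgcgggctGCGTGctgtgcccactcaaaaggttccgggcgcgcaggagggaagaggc
ABCG2 upstream start, chr4:88231627-88231876, minus strand: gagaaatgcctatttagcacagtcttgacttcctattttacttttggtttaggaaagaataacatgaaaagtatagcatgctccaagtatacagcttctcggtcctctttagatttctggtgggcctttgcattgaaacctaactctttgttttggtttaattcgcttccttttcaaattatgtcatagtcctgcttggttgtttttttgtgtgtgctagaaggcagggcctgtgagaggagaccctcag
ABCA5, chr17:69327134-69327383, minus strand: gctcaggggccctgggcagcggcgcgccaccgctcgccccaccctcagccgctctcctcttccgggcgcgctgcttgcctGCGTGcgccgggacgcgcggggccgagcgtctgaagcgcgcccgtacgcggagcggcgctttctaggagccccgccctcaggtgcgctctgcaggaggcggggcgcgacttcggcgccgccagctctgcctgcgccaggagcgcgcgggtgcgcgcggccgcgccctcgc
ABCC4, chr13:95301452-95301701, minus strand: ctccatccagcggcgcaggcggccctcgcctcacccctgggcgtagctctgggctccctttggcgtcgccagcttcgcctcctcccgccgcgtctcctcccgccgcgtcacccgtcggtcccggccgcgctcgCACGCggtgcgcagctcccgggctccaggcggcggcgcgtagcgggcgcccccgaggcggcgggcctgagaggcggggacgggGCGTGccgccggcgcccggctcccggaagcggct

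The core was found 2 times before the downstream ABCG2 start, 0 times before the upstream one, 1 time before ABCA5 and 2 times before ABCC4. It is common: 32.2% of 35116 upstream sequences of this length held it on either strand, and 38.5% of the 52 sequences of 35 members did. The letters TGACNNNGC, searched on both strands as the core of the antioxidant response element, were in 17.3% of the member sequences and 10.9% of all. TATAAA was in 11.5% and 10.7%. None of the 3 motifs contains another. A match describes these letters only. Members without an entry in the sequence table were ABCA4, ABCA8, ABCB5, ABCC1, ABCC3, ABCC8 and ABCG1.

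CpG pairs before the start were more numerous among the well-counted members. Of 17 members with 1000 or more counts in a library, 16 had 10 or more CpG pairs before at least 1 start, with a median of 26. ABCA12 was the exception, with 2. Of 14 members under 100 counts, 5 had as many, with a median of 7.5. In the class between, 3 of 4 had as many, with a median of 21.5. Among members with under 10 counts in parental and 10 or more in paclitaxel-resistant cells, ABCA9, ABCA10, ABCA13 and ABCB11 had 1 or 2 CpG pairs, whereas CFTR had 11, ABCC11 up to 24 and ABCG2 up to 32. Genes with several starts were taken at the start with the most CpG pairs. Over all 35116 upstream sequences the median was 11, counted per start and so not on the same footing. Whether genes outside the family differ by count in the same way was not tested, so the pattern cannot be called particular to the members.

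The sterol and lipid transporters comprised 16 genes. In adriamycin-resistant cells 4 of 10 compared were higher than in parental cells, where 11.1% of all genes were, namely ABCA5, ABCA12, ABCA10 and ABCG1. In paclitaxel-resistant cells 4 of 12 were higher, where 20.6% of all genes were, namely ABCA5, ABCA10, ABCA9 and ABCA13. The last 3 had 0 to 3 parental counts and reached the minimum only through the resistant libraries. With 100 or more counts, 3 of 8 were higher in adriamycin-resistant cells (6.28% of all genes) and 1 of 7 in paclitaxel-resistant cells (11.7%). None was lower by 2-fold or more in either line, where 11.3% of all genes were in adriamycin-resistant and 13.5% in paclitaxel-resistant cells.

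ABCA5, a transporter of the endosomes and lysosomes linked to cholesterol handling, is encoded at chr17:69244311-69327133. It had 714 counts in parental, 3969 in adriamycin-resistant and 2485 in paclitaxel-resistant cells. Both resistant lines were above parental cells, by 3.8-fold (95% interval 3.51 to 4.12) and 2.26-fold (2.08 to 2.46). ABCA10, a neighbor that overlaps ABCA5 on the same strand, had 3, 18 and 34 counts, with ratios of 4.1 (1.2 to 21.7) and 7.35 (2.31 to 37.4). The cluster on chromosome 17 also holds ABCA9 with 0, 0 and 16 counts, ABCA6 under the minimum, and ABCA8 at 0 throughout. Against the floor of 3 counts, ABCA9 was 3.46-fold higher in paclitaxel-resistant than in parental cells, a value without an interval. The levels of the cluster were unequal, with the ABCA5 TPM at 20.1 in adriamycin-resistant cells and that of ABCA10 at 0.124. Reads in the overlap of ABCA5 and ABCA10 cannot be assigned with certainty.

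ABCA12, the transporter that loads ceramides into the lamellar granules of skin, had 329, 1184 and 813 counts. It was 2.46-fold higher in adriamycin-resistant (95% interval 2.17 to 2.79) and 1.6-fold higher in paclitaxel-resistant cells (1.41 to 1.83). ABCG1, which passes cholesterol to high-density lipoprotein, had 63, 190 and 61 counts. Its ratio was 2.06 (1.54 to 2.79) in adriamycin-resistant and 0.628 (0.434 to 0.907) in paclitaxel-resistant cells, on opposite sides of the parental level, although under library size alone the second interval included no change. ABCA1, which hands cholesterol to apolipoproteins, had 66, 179 and 151 counts and ratios of 1.85 (1.39 to 2.5) and 1.48 (1.1 to 2.01). ABCA1 and ABCG1, both known targets of the liver X receptors, thus matched in adriamycin-resistant cells only in lying above the parental level.

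ABCA2, ABCA3 and ABCA7 were well counted and within 2-fold of parental cells. ABCA3, which packs surfactant lipids, had 1093, 2763 and 1509 counts and ratios of 1.73 (95% interval 1.61 to 1.85) and 0.895 (0.828 to 0.969). The second of these lies above no change under library size alone or on the FPKM and TPM scales. ABCA2 had 1623, 2154 and 3289 counts, with 0.907 (0.85 to 0.968) and 1.31 (1.24 to 1.4). ABCA7 had 1875, 1983 and 3318 counts, with 0.723 (0.678 to 0.77) and 1.15 (1.08 to 1.21). ABCA2 and ABCA7 were below parental cells in the adriamycin-resistant and above them in the paclitaxel-resistant line. ABCA4, the retinoid transporter of photoreceptors, had 173, 435 and 267 counts, and ABCG4 had 29, 63 and 88. ABCA13 was seen in the paclitaxel-resistant library alone, with 23 counts, 4.97-fold above parental cells taken at the floor of 3 counts.

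**Figure D4:**
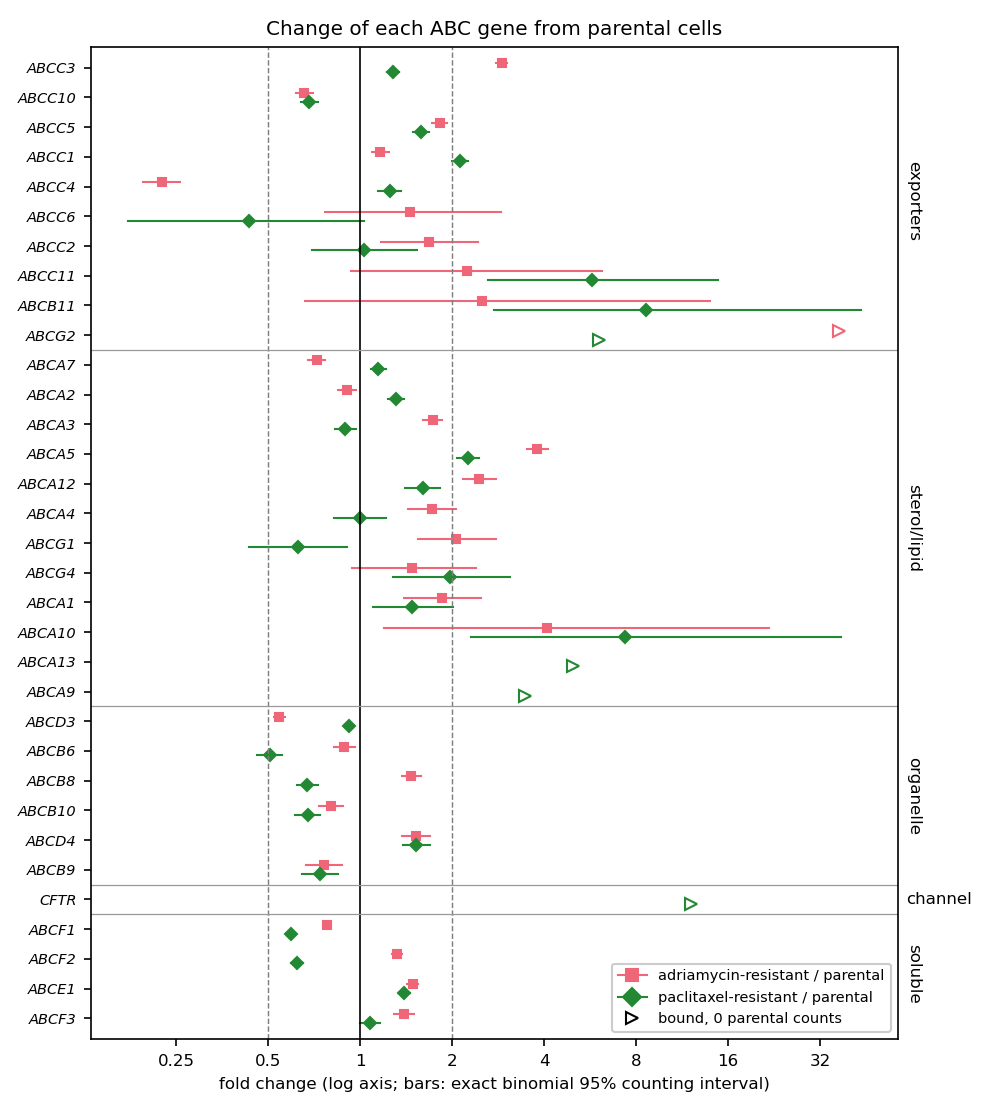
Fold change from parental cells (horizontal axis, log scale) of each member compared (vertical axis, grouped by role) in adriamycin-resistant (squares) and paclitaxel-resistant cells (diamonds), with exact binomial 95% counting intervals as bars, open triangles for lower bounds against 0 parental counts, and dashed lines at 2-fold. ABCC4 stands alone on the left for adriamycin-resistant cells, and the low-count exporters ABCC11 and ABCB11 have wide intervals.

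The organelle transporters showed no 2-fold difference from parental cells in either resistant line among 6 of 7 compared. Over all genes with 100 or more counts, 6.28% were higher and 7.85% lower in adriamycin-resistant cells, and 11.7% and 12.7% in paclitaxel-resistant cells. With such shares, the absence of calls among 6 genes says little about the group. ABCD3, which carries fatty acids into peroxisomes, had 5459, 4344 and 7760 counts. Its ratios were 0.544 (95% interval 0.522 to 0.566) in adriamycin-resistant and 0.922 (0.89 to 0.954) in paclitaxel-resistant cells, and the second lies above no change under library size alone or on the FPKM and TPM scales. ABCD4, needed for vitamin B12 to leave lysosomes, was above parental cells in both lines, with 527, 1173 and 1241 counts and ratios of 1.52 (1.37 to 1.69) and 1.53 (1.38 to 1.69). The 4 members of subfamily B that reside in mitochondria or lysosomes were, ABCB8 in adriamycin-resistant cells excepted, below parental cells in both lines. ABCB6, a porphyrin transporter, had 1081, 1404 and 843 counts, and its paclitaxel-resistant ratio of 0.506 (0.462 to 0.554) was just inside the threshold. ABCB8, part of a mitochondrial potassium channel complex, had 1208, 2603 and 1253 counts, and its ratios of 1.47 (1.38 to 1.58) and 0.673 (0.621 to 0.728) were on opposite sides of no change. ABCB10, a mitochondrial transporter of red-cell precursors, had 894, 1051 and 928 counts, with 0.803 (0.734 to 0.879) and 0.673 (0.613 to 0.739). ABCB9, the lysosomal peptide transporter, had 412, 460 and 471 counts.

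CFTR, the chloride channel of secretory epithelia, belongs to subfamily C by sequence and lies at chr7:117480025-117668665 on the plus strand. It had 0 counts in parental, 2 in adriamycin-resistant and 56 in paclitaxel-resistant cells. With parental cells at the floor of 3 counts, the paclitaxel-resistant level was 12.1-fold higher, a value that 1.9% of genes reached. Against the 2 counts of adriamycin-resistant cells it was 26.6-fold higher (95% interval 7.02 to 225). CFTR overlaps CTTNBP2 and antisense genes on the opposite strand, so its counts are uncertain in the same way as those of ABCC11. The same caution applies to ABCE1, ABCB9 and ABCC10, which overlap protein-coding genes on the opposite strand, and to ABCB6, which overlaps one on its own strand. It extends to ABCA1, ABCA2, ABCA9, ABCA10, ABCA12, ABCB8, ABCC5 and ABCC6, which overlap antisense genes on the opposite strand. The sulfonylurea receptor genes ABCC8 and ABCC9, which regulate potassium channels, were at 0.

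All 4 soluble ATPases had over 1000 counts in each library and stayed within 2-fold of parental cells, as most genes did. With 100 or more counts, 6.28% of all genes were higher and 7.85% lower in adriamycin-resistant cells, and 11.7% and 12.7% in paclitaxel-resistant cells. ABCE1, which splits ribosomes after translation ends, had 3345, 7273 and 7200 counts and ratios of 1.49 (95% interval 1.43 to 1.55) and 1.4 (1.34 to 1.46). ABCF1, a factor of translation initiation, had 8281, 9459 and 7567 counts and ratios of 0.78 (0.758 to 0.804) and 0.593 (0.574 to 0.611). ABCF2 had 4001, 7757 and 3831 counts and lay above parental cells in adriamycin-resistant (1.32, 1.27 to 1.38) but below them in paclitaxel-resistant cells (0.621, 0.594 to 0.649). Its readthrough gene ABCF2-H2BE1 had 93, 133 and 8 counts, and reads common to both could have been counted on either. ABCF3 had 1062, 2169 and 1762 counts, and its paclitaxel-resistant ratio of 1.08 had an interval that included no change (0.996 to 1.16). This closeness to parental cells depended on the scaling, as library size alone shifts the log2 fold change upward by 0.22. By TPM, ABCF3 was at 27.6 in parental and 36.2 in paclitaxel-resistant cells. ABCE1 was thus above and ABCF1 below parental cells in both lines.

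The resistant lines were also compared directly, over 33 members. In paclitaxel-resistant against adriamycin-resistant cells 6 were higher, where 20.1% of 19327 genes were, and 6 were lower, where 13.3% were. The median log2 fold change of the members was -0.20, beside 0.07 over all genes. With 100 or more counts, ABCC4 alone of 25 was higher, where 11.8% of 13793 genes were, and 5 were lower, where 12.5% were. The 6 higher members were ABCC4, ABCC11, ABCB11, CFTR, ABCA9 and ABCA13. The last 2 had 0 counts in adriamycin-resistant cells, and against the floor of 3 counts they were 5.06-fold and 7.28-fold higher. ABCC11 and ABCB11 had ratios of 2.56 (95% interval 1.56 to 4.33) and 3.45 (1.74 to 7.46).

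The 6 lower members were ABCG2, ABCC3, ABCC6, ABCG1, ABCB8 and ABCF2. ABCG1 was at 0.305 (95% interval 0.225 to 0.408), ABCC3 at 0.442 (0.428 to 0.457), ABCB8 at 0.457 (0.427 to 0.489) and ABCF2 at 0.469 (0.451 to 0.487). ABCC6 was at 0.296 (0.13 to 0.618). The calls of ABCC3, ABCB8 and ABCF2 depended on the scaling, and under library size alone 8 members were higher and 3 lower, where 24.6% and 9.81% of genes were. ABCC1 was 1.83-fold higher (1.74 to 1.92), ABCD3 1.7-fold (1.63 to 1.76), ABCA7 1.59-fold (1.5 to 1.68) and ABCA2 1.45-fold (1.37 to 1.53). ABCA3 was at 0.518 (0.486 to 0.552), ABCB6 at 0.57 (0.522 to 0.621), ABCA5 at 0.594 (0.565 to 0.625) and ABCA12 at 0.652 (0.595 to 0.713). Under TMM scaling ABCD4 and ABCC10 were nearly level between the resistant lines. Their ratios were 1 (0.926 to 1.09) and 1.04 (0.97 to 1.1), intervals that include no change. This closeness depended on the scaling, as library size alone shifts every log2 ratio of this comparison upward by 0.21. By TPM, paclitaxel-resistant cells were above adriamycin-resistant cells, at 24.3 against 18.4 for ABCD4 and 21.2 against 16.2 for ABCC10.

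**Figure D5:**
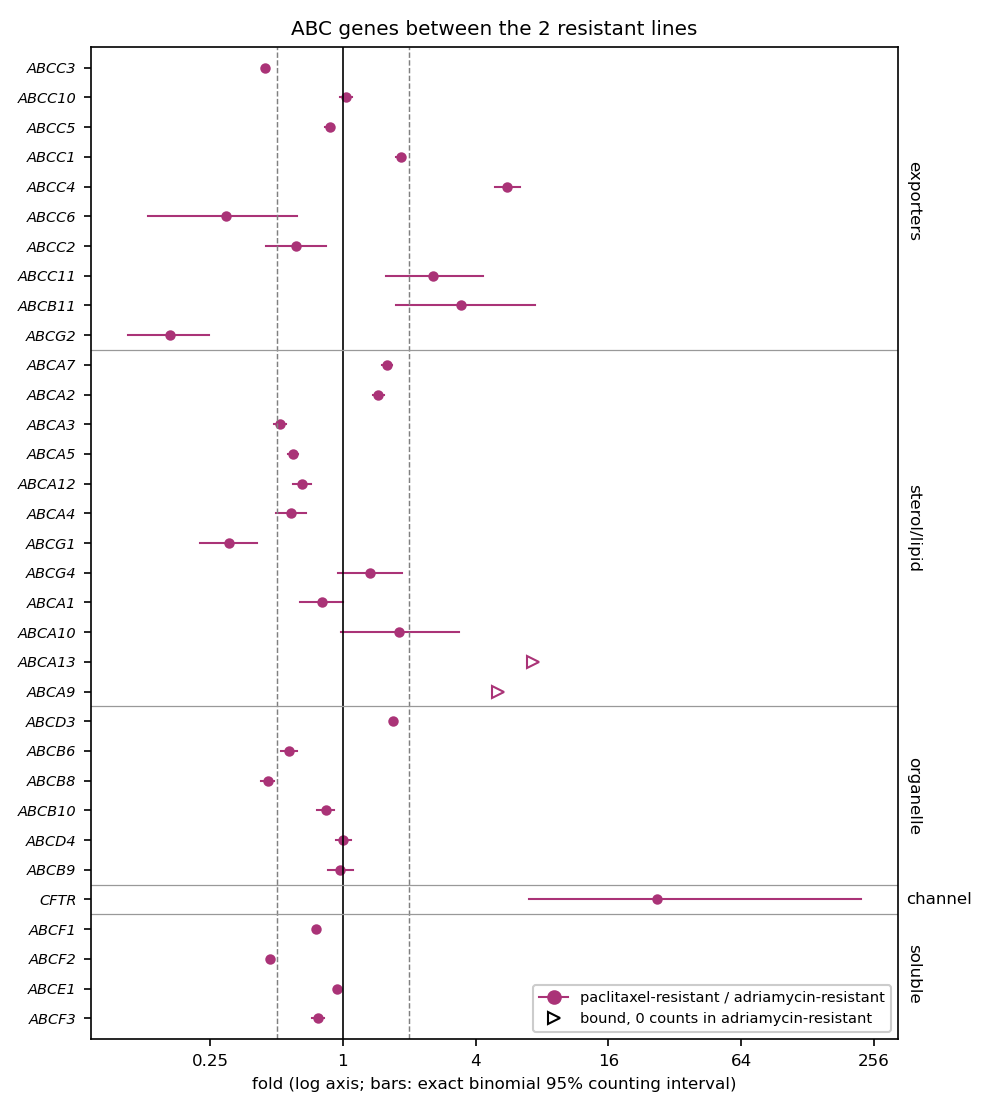
Ratio of paclitaxel-resistant to adriamycin-resistant cells (horizontal axis, log scale) for each member compared (vertical axis, grouped by role), with exact binomial 95% counting intervals as bars, open triangles for lower bounds against 0 counts, and dashed lines at 2-fold. CFTR and ABCC4 lie to the right, ABCG2, ABCC6 and ABCG1 to the left, and most well-counted members lie between the dashed lines.

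Among 20 known regulators of ABC genes, 17 were compared and NR1I2, NR1I3 and NR1H4, the pregnane X, constitutive androstane and farnesoid X receptors, were at 0 in all libraries. In adriamycin-resistant against parental cells 1 was higher (PPARG) and 2 were lower (SREBF1 and SREBF2), beside 11.1% and 11.3% of all genes. In paclitaxel-resistant cells 0 were higher and 5 lower, namely SREBF1, SREBF2, RXRB, KEAP1 and NFE2L2, beside 20.6% and 13.5%. All 17 had 100 or more counts. Of all genes with as many, 6.28% were higher and 7.85% lower in adriamycin-resistant cells, and 11.7% and 12.7% in paclitaxel-resistant cells. Under library size alone KEAP1 and NFE2L2 were no longer called, which left 3 lower, and PPARG was called higher. PPARG, a fatty acid-sensing receptor, had 301, 2011 and 902 counts, with ratios of 4.56 (95% interval 4.04 to 5.17) and 1.94 (1.7 to 2.22). NR1H3, the liver X receptor alpha, had 604, 1628 and 526 counts, with ratios of 1.84 (1.68 to 2.02) and 0.565 (0.501 to 0.636). AHR had 8177, 10399 and 9393 counts, with ratios of 0.869 (0.844 to 0.895) and 0.745 (0.723 to 0.767).

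Of 7 liver X receptor targets outside the family, 6 were compared, all with 100 or more counts. In adriamycin-resistant cells 1 was lower and in paclitaxel-resistant cells 3, with none higher by 2-fold. Beside them, 11.3% and 13.5% of all genes were lower, and 7.85% and 12.7% of those with 100 or more counts. The 3 were SREBF1, FASN and SCD, of which SCD was at 0.0999 (95% interval 0.0967 to 0.103). These 3 genes thus lay below parental cells where ABCA1 lay above them, but not every target did. In adriamycin-resistant cells 2 of the 6 had ratios above no change and 4 below, with NR1H3 at 1.84. In paclitaxel-resistant cells 1 was above and 5 were below, the former being LPCAT3 at 1.23 (1.13 to 1.34). Of 10 other genes of drug and conjugate handling, 1 was higher and 1 lower in adriamycin-resistant cells, and 2 were higher and 1 lower in paclitaxel-resistant cells, shares of 10% to 20% that lie near those of all genes (11.1% and 11.3%, 20.6% and 13.5%). SLC47A1, an organic cation extruder, was higher in both, with 84, 331 and 534 counts. GSTP1, which makes glutathione conjugates that ABCC pumps carry, had 1160, 0 and 2434 counts. The genes left out of the member list had 10, 8374 and 8171 counts for ABCB1, 0, 57 and 87 for ABCB4, 3010, 1415 and 1905 for TAP1, and 5030, 4921 and 3881 for TAP2. As TPM, ABCB1 went from 0.124 in parental cells to 71.5 in adriamycin-resistant and 86.2 in paclitaxel-resistant cells, beside 88.4 and 51 for ABCC3 in the resistant lines.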

How the data were processed

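Whole-number gene counts, FPKM and TPM of 3 libraries were deposited by the authors in 1 table of 46427 genes, the counts not normalized. The submitters' processing notes name Trimmomatic 0.39, HISAT2 2.2.1, StringTie 2.2.1 and GRCh38. Whether counting used strand is not stated. Samples were grouped by their labels. TMM factors came from edgeR 4.0.16 (R 4.3.3) over the 3 libraries. Ratios were computed in Python 3.11.15 with SciPy 1.17.1 and drawn with matplotlib 3.10.9. Counts under 3 were raised to 3 for calls. Against 0 counts the ratio to the floor of 3 counts is given without an interval, which leaves out counting error in the other library. Against 1 to 3 counts the ratio is given with its interval. No test was possible, because edgeR's quasi-likelihood fit and DESeq2 leave no residual degrees of freedom with 1 library per line. The steps were tested on simulated data. Counts are given for members changed 2-fold in a comparison, for those with 1000 or more counts and an interval excluding no change, and for all exporters. The members and the lists of regulators, liver X receptor targets, drug and conjugate handling genes, other ABC genes and cell markers were chosen with earlier results of these data known. Alternative settings used library size alone, DESeq2 1.42.0 size factors, TMM over 2 libraries, other count minimums, a prior count, a 4-fold threshold, the whole interval past 2-fold, and FPKM or TPM with a pseudocount of 1 or 0.1. Positions and upstream sequences are from RefSeq (GRCh38.p14), which matched all 42 members by position and 35 by sequence.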

Additional observations from a re-analysis of the deposited data

Results flagged for a closer look

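Members whose log2 fold changes from parental cells had opposite signs in the resistant lines, with both intervals clear of no change and a 2-fold difference between those lines, were ABCC4 (-2.16 in adriamycin-resistant and 0.32 in paclitaxel-resistant cells), ABCG1 (1.04 and -0.67), ABCB8 (0.56 and -0.57) and ABCF2 (0.41 and -0.69). Under library size alone the ABCG1 ratio in paclitaxel-resistant cells was 0.732, with an interval from 0.506 to 1.06 that included no change. For ABCB8 and ABCF2 the difference between the resistant lines did not reach 2-fold under library size alone. With 1 library per line, the difference between the lines was not tested, and the parental library is shared by both values.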

How the results depend on the processing

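No paired analysis was possible because each line has a single library, and none could be left out for the same reason. Of 936 values of single members under the alternatives, 651 stayed within the counting interval and 285 moved outside it, 25 of these with the opposite sign, and 6 more turned sign within it. The 25 were of ABCA3 and ABCD3 in paclitaxel-resistant against parental cells and of ABCA1, ABCE1, ABCC5, ABCB10 and ABCB9 between the resistant lines, under library size alone, FPKM or TPM. No called change turned direction. DESeq2 size factors, TMM over 2 libraries and a prior count of 2 left all counts of members within 1.5 times. Adriamycin-resistant against parental cells had 8 members higher. This became 5 with a minimum of 100 counts, 4 with the whole interval past 2-fold, 2 with a 4-fold threshold, 2 and 4 on FPKM with a pseudocount of 1 and 0.1, and 3 and 4 on TPM, beside 6.28%, 5.54%, 3.46%, 2.56% and 8.06%, and 3.94% and 9.21% of all genes. The median of 0.57 became 0.15 and 0.43 on FPKM and 0.21 and 0.47 on TPM. Paclitaxel-resistant against parental cells had 9 higher, which became 2 with a minimum of 100 counts and 2 on FPKM or TPM with a pseudocount of 1, beside 11.7%, 7.19% and 13.7% of all genes. The 9 stayed 9 with the whole interval past 2-fold and became 6 with a 4-fold threshold, beside 11% and 7.38%. The 1 lower member (ABCC6) became 0 with library size alone, a minimum of 100 counts, FPKM, TPM, a 4-fold threshold and the whole interval. The median of 0.36 became 0.58 with library size alone, 0.15 with a minimum of 100 counts, 0.15 and 0.55 on FPKM, and 0.68 on TPM with a pseudocount of 0.1. Paclitaxel-resistant against adriamycin-resistant cells had 6 higher and 6 lower. The higher members became 1 with a minimum of 100 counts, and 2 and 3 on FPKM and TPM with a pseudocount of 1, beside 11.8%, 6.9% and 14.8% of all genes. The lower ones became 3 with library size alone, 0 and 3 on FPKM, 1 and 3 on TPM, and 1 with a 4-fold threshold, beside 9.81%, 4.04% and 7.85%, 4.51% and 7.48%, and 3.97%. The median of -0.20 became -0.076 with no minimum and -0.38 with a minimum of 100 counts. It reversed to 0.012 with library size alone, 0.039 and 0.062 on FPKM, and 0.10 and 0.20 on TPM, scales on which the median of all genes also lay higher, at 0.28, 0.14 and 0.28, and 0.30 and 0.43. Library size alone shifts all changes of this comparison by 0.21. Stricter minimums compare fewer genes, and a pseudocount of 1 shrinks changes from a level near 0. ABCG2, at 0 in parental cells, thus went from a log2 value of 5.21 against the floor in adriamycin-resistant cells to 1.47 on TPM. For the other shifts the cause was not tested. Under 100 counts the intervals are too wide to rank members, and differences within counting error were not detectable at this depth.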
